A study of Rattus norvegicus with 24 samples.

Results

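Tubulin transcripts were examined in the tibialis anterior (TA), a muscle at the front of the lower leg, of aged rats whose muscle had been silenced, released and silenced again. The 10 genes described here are 5 alpha-tubulin isotypes (Tuba1a, Tuba1b, Tuba1c, Tuba4a and Tuba8) and 5 beta-tubulin isotypes (Tubb2a, Tubb2b, Tubb4b, Tubb5 and Tubb6), out of 13458 gene symbols measured. All 10 were found by their symbol and all 10 passed the filter on low values. The set was selected on the measured levels of Tuba8, chosen because they differed between recovery and disuse within animals, so the levels of Tuba8, and every difference between recovery and either period of disuse, are given as description with no test.

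Male Fischer 344 rats aged 23 ± 1 months carried a pump that delivered tetrodotoxin (TTX), a blocker of voltage-gated sodium channels, to the left common peroneal nerve, which stops nerve impulses to the left TA. The left TA was taken from 3 rats after 6 to 7 days of TTX (atrophy), from 3 rats after 9 further days without TTX (recovery) and from 3 rats after another TTX period of 5 to 6 days (repeated atrophy). The untreated right TA of these 9 rats formed the control group, so control limbs shared the circulation of treated animals. Both limbs of 3 rats with the same surgery and no TTX, 1 for each time point, formed the sham groups, which gave 24 limbs of 12 rats in all.

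Alpha- and beta-tubulin pair into dimers that polymerise into microtubules, and mammals encode each of them in several isotype genes that are expressed in different tissues. In muscle fibres, microtubules form a lattice below the membrane and around the nuclei, which carries motors and cargo and adds to the stiffness of the fibre. Cells also hold tubulin in check by autoregulation, in which a surplus of free dimers leads to decay of tubulin mRNA.

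Values are CPM, in which each gene's reads are divided by the total of the limb and multiplied by 1000000. In units of 1000000 reads, the depth inferred per limb lay between 18.9 and 30.9 (median 26.1). The 8 listed fibre markers together made up 201152 to 267922 CPM in the control limbs, so the tissue was skeletal muscle. These markers do not single out the TA. Tuba4a, Tuba8, Tubb4b, Tubb5 and Tubb6 held a whole number of reads in 24 of 24 limbs. Tuba1a, Tuba1b and Tuba1c did so in 1, 3 and 0 limbs and Tubb2a and Tubb2b in 1 limb each, whereas the sum of Tubb2a and Tubb2b was whole in 24 limbs and that of the Tuba1 genes in 16. Reads shared between these near-identical genes were thus divided between them in fractions, and the values of each single Tuba1 or Tubb2 gene are uncertain. Sums are given beside them. In rn7 coordinates Tuba1b, Tuba1a and Tuba1c lie side by side on chromosome 7, between 130090665 and 130199655, and Tubb2b and Tubb2a on chromosome 17, between 30747734 and 30800714. In whole muscle, fewer cells of a type and less RNA per cell cannot be told apart.

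Upstream sequences are shown for 4 members, Tuba8, Tuba4a and Tubb4b because they were lower in the left limb of every recovery rat, and Tubb6 because it had the largest fold change after repeated atrophy. Each runs 5′ to 3′ on the strand of the gene, from 250 bases before to 50 bases after the start of transcription, in RefSeq's annotation of the GRCr8 assembly. Promoters of all 10 members were matched in that table. The expression values themselves were made on rn7, and the builds are not mixed. Capitals mark an E-box (CANNTG, the site of basic helix-loop-helix factors), TATAAA and CCAAT (NF-Y), each on either strand, and no marked motifs overlap.
Tuba8, chr4:156112022-156112321, plus strand: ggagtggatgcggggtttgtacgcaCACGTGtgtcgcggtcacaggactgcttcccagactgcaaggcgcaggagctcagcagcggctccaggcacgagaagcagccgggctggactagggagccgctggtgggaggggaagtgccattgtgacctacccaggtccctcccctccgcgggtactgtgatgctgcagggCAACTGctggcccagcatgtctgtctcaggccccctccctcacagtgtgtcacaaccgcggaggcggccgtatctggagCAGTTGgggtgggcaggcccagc
Tuba4a, chr9:84162535-84162834, minus strand: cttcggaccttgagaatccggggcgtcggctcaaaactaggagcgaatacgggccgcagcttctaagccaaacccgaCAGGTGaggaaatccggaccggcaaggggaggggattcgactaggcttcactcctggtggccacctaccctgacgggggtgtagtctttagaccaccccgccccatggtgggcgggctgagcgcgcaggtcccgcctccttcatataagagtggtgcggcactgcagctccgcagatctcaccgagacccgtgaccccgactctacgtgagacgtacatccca
Tubb4b, chr3:28438406-28438705, minus strand: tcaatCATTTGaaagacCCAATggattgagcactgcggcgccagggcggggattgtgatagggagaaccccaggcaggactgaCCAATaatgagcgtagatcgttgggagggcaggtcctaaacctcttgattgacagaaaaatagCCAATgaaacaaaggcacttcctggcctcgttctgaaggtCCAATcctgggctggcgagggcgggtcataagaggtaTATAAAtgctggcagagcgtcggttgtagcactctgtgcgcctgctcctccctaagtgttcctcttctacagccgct
Tubb6, chr18:63213037-63213336, plus strand: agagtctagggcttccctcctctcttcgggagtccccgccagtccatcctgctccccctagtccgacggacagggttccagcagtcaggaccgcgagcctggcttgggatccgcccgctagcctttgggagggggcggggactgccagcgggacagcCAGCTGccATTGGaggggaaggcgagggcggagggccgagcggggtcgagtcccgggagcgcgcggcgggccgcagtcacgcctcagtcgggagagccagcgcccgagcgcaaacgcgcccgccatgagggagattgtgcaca

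The 3 genes that were lower in recovery each held an E-box, with 3 in Tuba8 and 1 each in Tuba4a and Tubb4b. Tubb4b also held 4 CCAAT motifs and TATAAA, whereas the windows of Tuba8 and Tuba4a held neither. Across the members, an E-box stood in 9 of 10 windows against 72.1% of 33469 promoters of the same length, CCAAT in 7 of 10 against 37.5%, and TATAAA in 2 of 10 against 14.2%. The MEF2 and CArG motifs, searched by their consensus on both strands, were in none of the 10 windows and in 0.6% and 1.6% of all promoters. A match is a description of letters and not a site.

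In the untreated control limbs the alpha pool was mostly Tuba4a and the beta pool mostly Tubb4b. Levels are compared between genes per length, as CPM per kilobase of transcript. Over these 9 limbs the order was Tuba4a (435 ± 183, SD), Tuba8 (173 ± 62.3), Tubb4b (143 ± 49.0), Tuba1b (43.4 ± 9.4), Tubb6 (32.9 ± 20.8), Tubb5 (31.2 ± 5.87), Tuba1a (18.6 ± 5.4), Tubb2a (10.1 ± 3.17), Tuba1c (6.11 ± 2.03) and Tubb2b (1.19 ± 0.5). The ranges of neighbours were apart at only 2 steps, between Tubb4b and Tuba1b and between Tuba1c and Tubb2b. Tuba4a nevertheless exceeded Tuba8 in 9 of 9 limbs, while Tubb6 exceeded Tubb5 in 5 of 9. The CPM of every member in every limb is plotted by group.

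**Figure D1:**
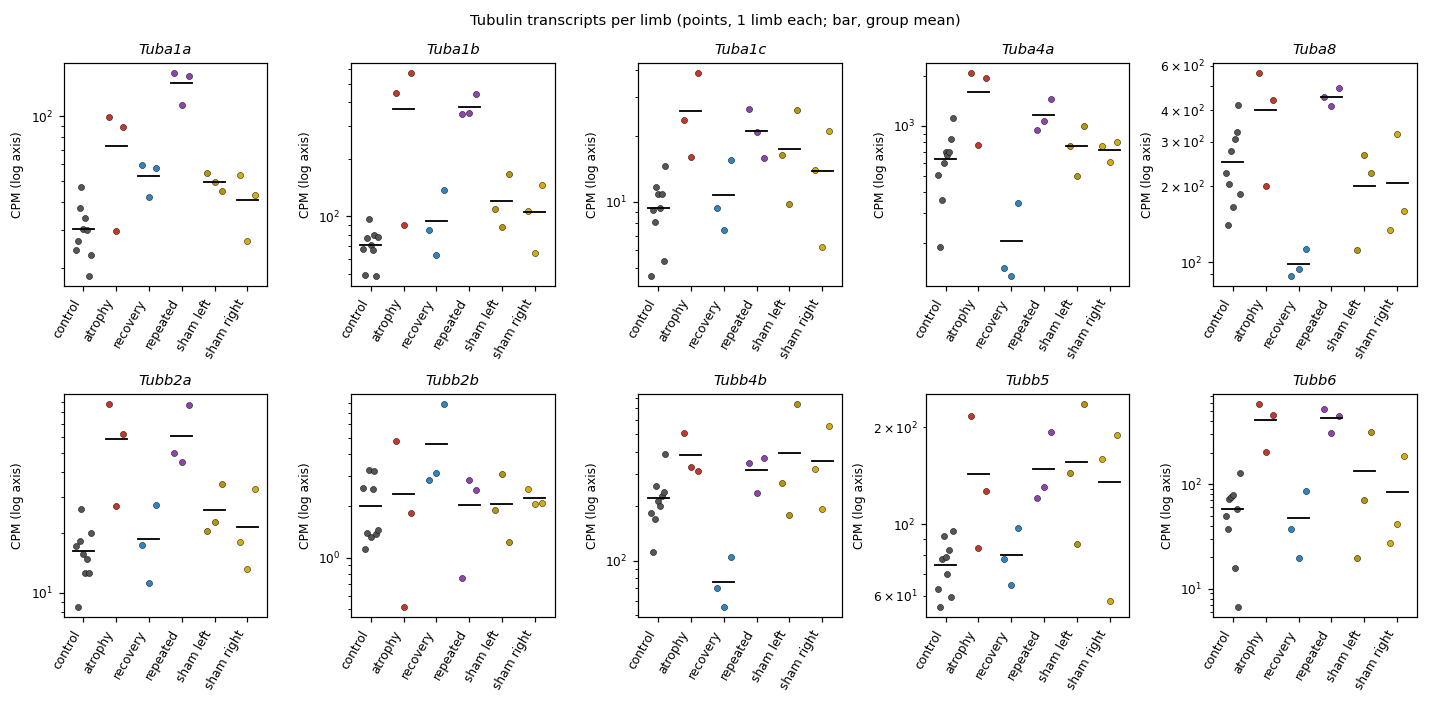
CPM (log axis) of the 10 tubulin genes in each limb, with 1 point per limb and a bar at the group mean. Tuba8, Tuba4a and Tubb4b are low in recovery, and Tubb6 lies between 310 and 522 CPM in repeated atrophy, above every control limb.

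Tuba8, an alpha-tubulin found mainly in striated muscle, testis and brain, was on average highest in disuse and lowest in recovery. In CPM it was 561, 200 and 440 in the left limbs of atrophy rats 1, 2 and 3. In recovery it was 88.2, 94.4 and 113, and in repeated atrophy 451, 416 and 492. The control limbs held between 140 and 421 (median 226). All 3 recovery limbs lay below all 9 control limbs, whereas in atrophy and in repeated atrophy 2 of the 3 limbs lay above the highest control limb and the third lay within the control range. The lowest sham left limb, at 112 CPM, overlapped recovery. On the log2(CPM + 1) scale, on which every fold change here is given, atrophy differed from control by 0.63, recovery by −1.27 and repeated atrophy by 0.93. With the values rescaled so that the median row did not move (median of ratios), these were 0.25, −1.28 and 0.54, and leaving out each rat in turn gave 0.32 to 1.00 in atrophy and 0.84 to 1.03 in repeated atrophy.

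The within-animal differences of Tuba8 were larger in recovery than those from the pooled control. The right limbs of recovery rats held 308, 329 and 421 CPM, above each of the other 6 control limbs (140 to 275 CPM). The left-to-right ratio was therefore 0.286, 0.287 and 0.268 in the 3 recovery rats. It was 2.48, 1.21 and 2.35 in the atrophy rats, and 3.23, 2.04 and 1.79 in the repeated atrophy rats. The mean left minus right difference was −1.83 ± 0.06 (SD, n = 3) in recovery, 0.94 ± 0.58 in atrophy and 1.18 ± 0.45 in repeated atrophy (log2 scale). Since the right limbs of recovery rats moved with this result, its size depends on which limbs serve as control; what part they had was not tested. In the sham rats the ratio was 0.839, 0.821 and 1.40, and the sham left limbs differed from control by −0.33, also given with no test since the control limbs entered the choice of Tuba8.

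The other 9 members were tested in 5 comparisons. A row of the table was called when its fold change was at least 1.2 and its Benjamini-Hochberg adjusted p, over all rows tested, at most 0.05 by limma. After atrophy, 8 of the 9 other members were called higher and 0 lower, against 20.3% of 14031 rows higher and 2.33% lower. Tubb2b was the exception. The median log2 fold change of the 9 members was 1.35, against 0.22 over all rows. With the median of ratios rescaling 4 of 9 were called higher, against 4.53% of rows. These were Tuba1b, Tuba1c, Tubb2a and Tubb6. With the animal as a block 0 of 9 were called, where 0% of all rows were called higher. An unadjusted p under 0.05 was then reached by 7 of the 9, and by 2678 of 14031 rows. Without atrophy rat 1 the count of calls was also 0, as it was for the microtubule genes described below. The share of all rows called in that fit is not given here. Without atrophy rat 3, Tuba1a and Tuba4a were not called, without recovery rat 1 or repeated atrophy rat 2 Tuba4a and Tubb4b were not, and without recovery rat 2 Tubb4b was not.

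Tubb6, a beta-tubulin that is known to rise in regenerating and dystrophic muscle, had the largest fold change. It stood at 578, 204 and 456 CPM in the atrophy limbs, all above the control limbs, which lay between 6.66 and 128 CPM (median 58.2). Its log2 fold change was 3.06 ± 0.64 (SE; adjusted p = 0.0072, limma), or 2.69 with rescaling (adjusted p = 0.015). With the animal as a block it was 2.24 (adjusted p = 0.18).

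Among the alpha-tubulins, Tuba1b, a widely expressed isotype, had the largest log2 fold change in atrophy. It stood at 444, 89.8 and 567 CPM, against 48.5 to 96.9 in control (median 70.3), and rat 2 lay within the control range. The log2 fold change was 2.03 ± 0.38 (adjusted p = 0.0062, limma). Without rat 2 it was 2.85, and over all rats left out in turn it lay between 1.55 and 2.85. The sum of Tuba1a, Tuba1b and Tuba1c, which still held fractions of reads in 8 of 24 limbs, was higher by 1.80 (adjusted p = 0.0062). Tubb2a and Tubb2b summed were higher by 1.59 (adjusted p = 0.0072), while Tubb2b itself differed by −0.00 (adjusted p = 1).

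The leading alpha and beta genes of the control limbs, Tuba4a and Tubb4b, had smaller log2 fold changes than Tubb6 and Tuba1b. Tuba4a, the main alpha-tubulin of these limbs, was 2067, 771 and 1937 CPM in atrophy against 187 to 1107 in control (median 668), and its log2 fold change was 1.35 (adjusted p = 0.032, limma; 0.98 and 0.12 with rescaling). Tubb4b, the main beta-tubulin, was 508, 331 and 315 CPM against 111 to 388 (median 214), so 2 of 3 limbs lay within the control range. Its log2 fold change was 0.83 (adjusted p = 0.037, limma; 0.45 and 0.27 with rescaling). Tubb5, another widely expressed beta-tubulin, was 217, 84.6 and 127 CPM against 55.2 to 95.02 (median 77.8), with a log2 fold change of 0.84 (adjusted p = 0.018, limma; 0.46 and 0.11 with rescaling). Atrophy rat 2 was the lowest of the 3 atrophy limbs for every member except Tubb4b.

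After recovery, 2 of the 9 other members, Tuba4a and Tubb4b, were called lower and 0 higher, against 3.33% of rows lower and 4.4% higher. These are the leading alpha and beta genes of the control limbs. This comparison shares the recovery limbs with the contrast that chose Tuba8. Tuba4a was 141, 126 and 344 CPM in the 3 rats, with the lowest control limb at 187, and the third recovery limb lay within the control range. Tubb4b was 70.2, 55.1 and 104 CPM, below every control limb. The log2 fold changes were −1.63 ± 0.43 (adjusted p = 0.028, limma) and −1.50 ± 0.27 (adjusted p = 0.0048). With rescaling the same 2 genes were called, where 5.82% of rows were called lower. With the animal as a block the values were −1.99 (adjusted p = 0.075) and −1.57 (adjusted p = 0.092), so that 0 of 9 were called, where 0.0214% of rows were called lower. Without recovery rat 1 or rat 2, Tubb4b was called and Tuba4a was not, and without atrophy rat 2 Tuba1a was called higher as well.

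The other members did not pass the test in recovery, in either direction. Tubb6 was 37.4, 19.6 and 85.1 CPM, within the control range, with a log2 fold change of −0.15 (95% CI −1.49 to 1.19) that became 1.06 with the animal as a block. Its right limbs in these rats were 15.6, 58.2 and 6.66 CPM, which include the 2 lowest control limbs. Tuba1a was 59.6, 42.3 and 57.8 CPM, with 2 of 3 limbs above the highest control limb of 47.3, and its log2 fold change of 0.83 had an adjusted p of 0.088 (limma). The summed Tuba1 genes differed by 0.51 (adjusted p = 0.37) and the summed Tubb2 genes by 0.30 (adjusted p = 0.62).

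After repeated atrophy, 6 of the 9 other members were called higher and 0 lower, against 28.1% of rows higher and 6.24% lower. They were Tuba1a, Tuba1b, Tuba1c, Tubb2a, Tubb5 and Tubb6. Their median log2 fold change together with the other 3 was 1.12, against 0.20 over all rows. The same 6 were called with rescaling, where 13% of rows were called higher. With the animal as a block 6 were called again, against 21.5% of rows, with Tuba4a in (1.72, adjusted p = 0.0075) and Tuba1c out (1.03, adjusted p = 0.068). Tuba1c was also not called without repeated atrophy rat 1 or rat 2, and without atrophy rat 3 Tuba4a and Tubb4b were called in addition.

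In repeated atrophy the limbs of a group lay closer together than in atrophy for Tubb6 and the Tuba1 genes. Tubb6 was 522, 310 and 447 CPM, with a log2 fold change of 3.20 ± 0.64 (adjusted p = 0.0011, limma). Tuba1b was 345, 349 and 441 CPM (2.43 ± 0.38, adjusted p = 0.00022). Tuba1a was 158, 113 and 154 CPM, all above control, where the median was 29.9 (2.23 ± 0.30, adjusted p = 8.6e-05). For these genes no limb of the group overlapped the control range. The summed Tuba1 genes were higher by 2.31 (adjusted p = 0.00016) and the summed Tubb2 genes by 1.73 (adjusted p = 0.00089).

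Tubb5 rose by less, with 120.6, 131 and 193 CPM in the repeated atrophy limbs and at most 95.02 in control (0.97 ± 0.23, adjusted p = 0.0039, limma). With rescaling and the animal block together the value for Tubb5 was 0.59 (adjusted p = 0.094) and the gene was not called. The sham left limbs, which had no TTX, held 86.98, 143.8 and 236.2 CPM of Tubb5 and differed from control by about as much (0.95). Tuba4a was 943, 1074 and 1452 CPM, with a log2 fold change of 1.00 (95% CI 0.09 to 1.90, adjusted p = 0.082), and its right limbs in these rats were 187, 361 and 603 CPM, 3 of the 4 lowest control limbs. Tubb4b was 347, 238 and 372 CPM (0.57, 95% CI −0.01 to 1.15, adjusted p = 0.12). Tubb2b stood at 0.763, 2.82 and 2.48 CPM (−0.02, 95% CI −0.78 to 0.73).

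**Figure D2:**
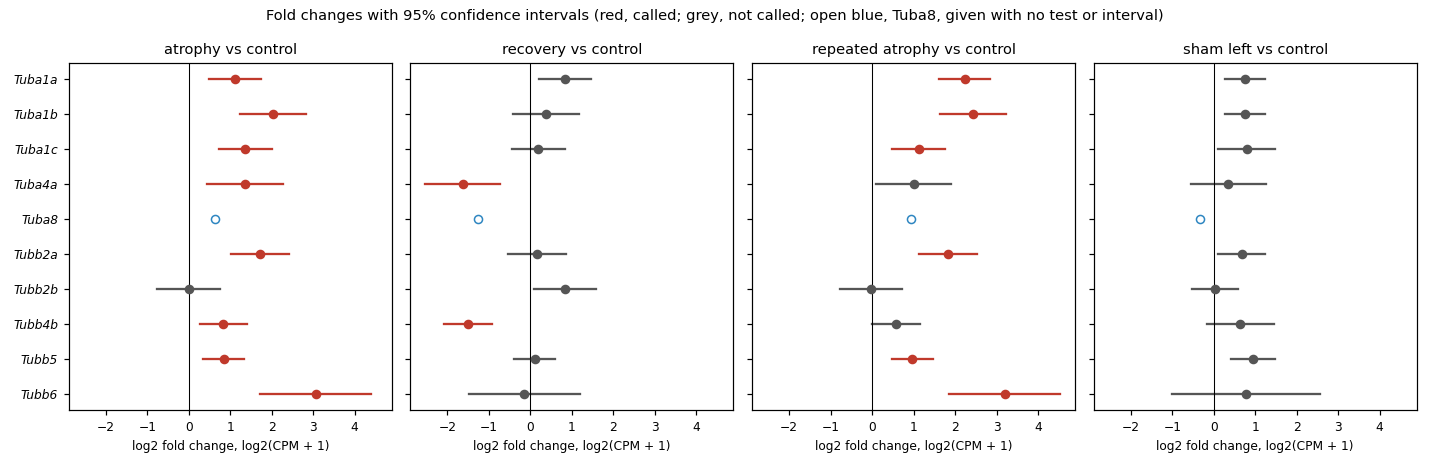
Log2 fold change on the log2(CPM + 1) scale with its 95% confidence interval for each tubulin gene in 4 comparisons. Red marks a call, grey no call and open blue Tuba8, given with no test or interval; Tubb6 has the largest value in atrophy (3.06) and in repeated atrophy (3.20), and only Tuba4a and Tubb4b are called lower, in recovery.

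Repeated atrophy was set directly against atrophy to ask whether the second period gave a different tubulin response. Of the 9 other members 0 were called by limma, against 0.0356% of rows in either direction. An unadjusted p under 0.05 was reached by 884 of 14031 rows and by 1 of the 9 members. That gene was Tuba1a, with a difference of 1.11 (95% CI 0.35 to 1.88, adjusted p = 0.47). For Tubb6 the difference was 0.14 with a 95% CI of −1.50 to 1.78. With the animal as a block 0 were called as well.

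Sham left limbs, which had surgery and no TTX, were compared with control. The control limbs came from other rats, treated with TTX, so this comparison cannot separate surgery from differences between rats. Of the 9 other members 0 were called by limma, against 0% of 13822 rows in either direction. An unadjusted p under 0.05 was reached by 5 of the 9, and by 1904 of the 13822 rows. The log2 differences ranged from 0.03 for Tubb2b to 0.95 for Tubb5 (adjusted p = 0.23), with a median of 0.76, against 0.17 over all rows. Sham rat 3 was high in both limbs, with 312 and 184 CPM of Tubb6, 735 and 558 of Tubb4b and 236 and 190 of Tubb5. Without sham rat 3 the Tubb6 difference was −0.23 in place of 0.78, and without sham rat 2 Tubb5 alone was called. Within the sham rats the left minus right differences of the 10 members averaged −0.115 to 0.365.

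Within animals, Tuba4a and Tubb4b followed the direction of Tuba8. The left minus right difference of Tuba4a (log2 scale) was 0.99 ± 0.95 in atrophy (SD, n = 3), −1.99 ± 0.63 in recovery and 1.72 ± 0.55 in repeated atrophy, with the left limb higher in 3, 0 and 3 of 3 rats. For Tubb4b it was 0.59 ± 0.88, −1.57 ± 0.42 and 0.88 ± 0.65, with the left limb higher in 2, 0 and 3 rats. For no other member was the left limb lower in all 3 recovery rats. Tubb6 went the other way in 2 of the 3 recovery rats, whose left-to-right ratios were 2.39, 0.336 and 12.8. Recovery and disuse are set side by side here without a test.

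**Figure D3:**
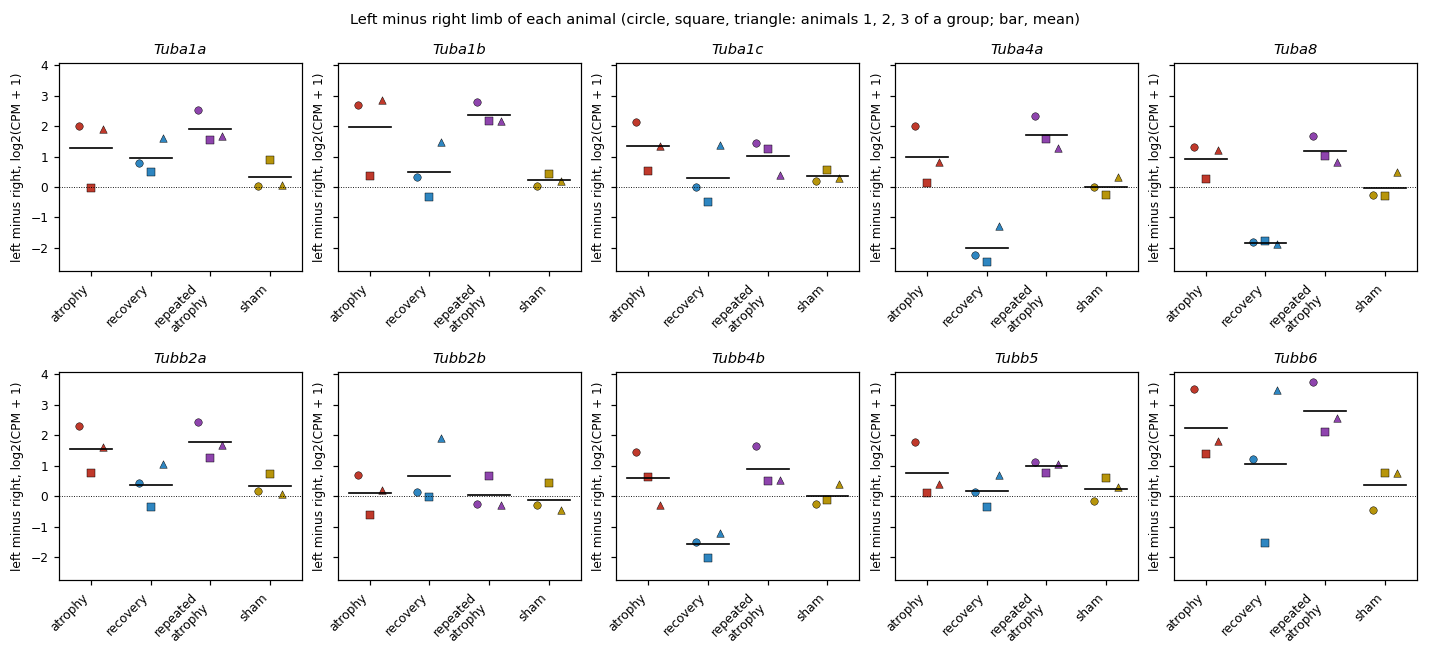
Left minus right difference, log2(CPM + 1), of each rat for the 10 tubulin genes, with circles, squares and triangles for rats 1, 2 and 3 of a group and a bar at the mean. Tuba8, Tuba4a and Tubb4b lie below 0 in every recovery rat, at −1.83, −1.99 and −1.57 on average, and above 0 in every repeated atrophy rat.

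Tubb6 took a larger share of the beta-tubulin transcripts in disuse. Tubb6 made up 14.5% ± 6.61 of the beta pool per length in control (SD, n = 9; highest limb 20.9%). Its share was 39.4% ± 8.29 in atrophy, 20.0% ± 6.92 in recovery and 44.1% ± 4.64 in repeated atrophy. Every disuse limb, from 30.4% up, exceeded every control limb, and the sham limbs reached 23.0%. Tubb4b was the counterpart, at 65.4% ± 7.48 in control, 44.4% ± 10.2 in atrophy, 40.5% ± 2.77 in recovery and 37.4% ± 0.59 in repeated atrophy. In recovery, Tubb5 took up 28.2% ± 4.93 of the beta pool against 14.9% ± 2.39 in control, with every recovery limb (22.9% or more) above the highest control limb (18.9%). The sham limbs overlapped recovery, with Tubb5 at 12.7% to 23.2% in the left limbs and 13.2% to 22.02% in the right.

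The alpha pool kept Tuba4a as its largest part in every group. Its share was 62.2% ± 9.57 in control, 67.0% ± 3.16 in atrophy, 43.6% ± 8.34 in recovery and 54.9% ± 4.01 in repeated atrophy. Tuba8 held 26.6% ± 6.90, 16.9% ± 1.98, 23.6% ± 5.94 and 21.8% ± 2.20 in the same order, so its mean share was not higher in disuse than in the pooled control. Against the right limb of the same rat its share was higher in 2 of 3 atrophy rats (17.9%, 18.3% and 14.7% in the left limb against 27.5%, 17.1% and 13.4% in the right) and in 0 of 3 repeated atrophy rats (24.1%, 21.6% and 19.7% against 34.7%, 30.1% and 27.0%). Tuba1b held 7.06% ± 2.47 in control, 12.3% ± 4.79 in atrophy, 16.2% ± 0.35 in repeated atrophy and 19.1% ± 1.59 in recovery, and its lowest atrophy limb (7.36%) lay within the control range (3.29% to 10.9%). These shares are descriptions, since they hold Tuba8 and the divided reads of the Tuba1 genes.

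The summed alpha pool was 676 ± 215 CPM per kb in control, 1663 ± 789 in atrophy, 307 ± 121 in recovery and 1445 ± 238 in repeated atrophy. The beta pool was 218 ± 71.3, 582 ± 213, 124 ± 48.9 and 550 ± 118 in the same order. The alpha to beta ratio of each limb averaged 3.14, 2.79, 2.49 and 2.68, and its ranges overlapped between all 4 groups.

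**Figure D4:**
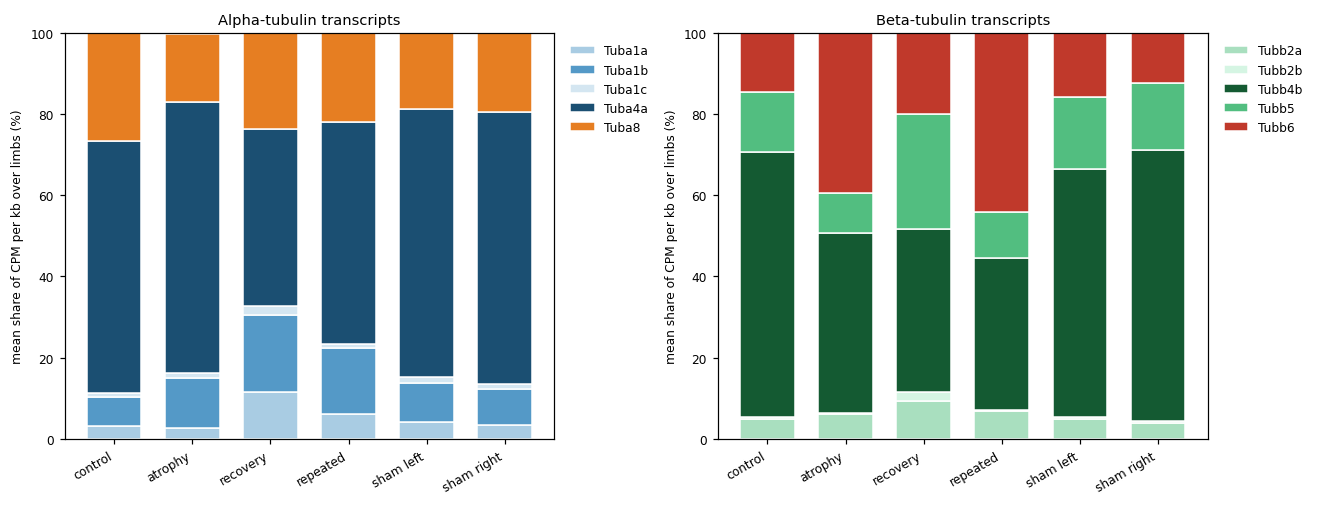
Mean share (%) of each isotype in the alpha pool (left) and the beta pool (right), from CPM per kilobase, for the 6 groups of limbs. Tubb6 takes 14.5% of the beta pool in control and 44.1% in repeated atrophy, while Tuba4a is the largest part of the alpha pool in every group.

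The machinery that folds, modifies, stabilises and moves along tubulin was read from a list of 135 genes in 7 groups, of which 112 were in the table used here and 111 were tested. After atrophy 42 were called higher and 4 lower (15 and 7 with rescaling, 0 and 0 with the animal as a block), after recovery 6 higher and 6 lower (4 and 10 with rescaling, 0 and 0 with the block) and after repeated atrophy 58 higher and 6 lower (34 and 12 with rescaling, 52 and 6 with the block). Over all rows, atrophy had 20.3% called higher and 2.33% lower, recovery 4.4% higher and 3.33% lower, and repeated atrophy 28.1% higher and 6.24% lower. With rescaling these shares were 4.53% and 5.16%, 6.28% and 5.82%, and 13% and 12.1%, and with the block 0% and 0%, 0.0428% and 0.0214%, and 21.5% and 5.66%. The recovery counts and the count of genes lower after repeated atrophy lay near the share of all rows. The median log2 fold change of the list was 0.42, 0.00 and 0.58, against 0.22, 0.02 and 0.20 over all rows. Without atrophy rat 1 the atrophy count was 0, without recovery rat 1, recovery rat 2 or repeated atrophy rat 2 the recovery count was 0, 5 or 6, and without repeated atrophy rat 2 the repeated atrophy count was 41.

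Of 20 tested genes of tubulin folding and autoregulation, 16 were called higher and 0 lower after repeated atrophy (16 and 0 with the block), against 28.1% of rows higher, and 12 and 0 with rescaling, against 13%. After atrophy the counts were 13 and 0 (0 and 0 with the block), against 20.3%, and 5 and 0 with rescaling, against 4.53%. After recovery they were 2 and 0, against 4.4%, 1 and 1 with rescaling and 0 and 0 with the block. Tbcb, a cofactor that handles alpha-tubulin, rose from 25.1 ± 10.7 CPM in control to 88.4 ± 16 in repeated atrophy (log2 fold change 1.84, adjusted p = 0.00028, limma). Cct2, a subunit of the chaperonin that folds new tubulin and actin, rose from 127 ± 44.9 to 319 ± 35.3 CPM (1.39, adjusted p = 0.00055). In recovery Tbcb stood at 22.4 ± 6.79 and Cct2 at 134 ± 21.9 CPM, and neither passed the test.

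Of 12 tubulin modifying enzymes tested, 6 were called higher and 1 lower after repeated atrophy, against 28.1% and 6.24% of rows. With rescaling the counts were 4 and 1, against 13% and 12.1%. Vash2, a vasohibin that removes the C-terminal tyrosine of alpha-tubulin, rose from 59.9 ± 11.8 to 276 ± 69.4 CPM (2.17, adjusted p = 0.00023, limma), and Atat1, the alpha-tubulin acetyltransferase, from 1.81 ± 0.59 to 6.72 ± 2.87 CPM (1.42, adjusted p = 0.00097). Agtpbp1, which trims glutamate side chains from tubulin, fell from 184 ± 20.4 to 116 ± 13.5 CPM (−0.65, adjusted p = 0.0046).

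Among 30 stabilisers and tip proteins 13 were called higher and 2 lower after repeated atrophy, against 28.1% and 6.24% of rows. With rescaling 7 were higher and 5 lower, against 13% and 12.1%. Dclk1, a doublecortin-like kinase that binds microtubules, had the largest rise, from 36.2 ± 20.8 to 822 ± 485 CPM (4.49, adjusted p = 0.00022, limma), and Map1a rose from 104 ± 83.9 to 774 ± 408 CPM (3.13, adjusted p = 0.00094). Mid1ip1 fell from 62.6 ± 15.6 to 32.7 ± 7.79 CPM (−0.90, adjusted p = 0.004). In atrophy Dclk1 stood at 158 ± 158 CPM and was not called (adjusted p = 0.053).

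The motors moved in both directions. Of 23 tested, 13 were called higher and 3 lower after repeated atrophy, against 28.1% and 6.24% of rows. Rescaled, the motors counted 7 higher and 5 lower, against 13% and 12.1% of rows. Dynlt1, a dynein light chain, rose from 5.57 ± 2.29 to 27.2 ± 3.36 CPM (2.16, adjusted p = 0.00016, limma), and Kif5b, the widely expressed kinesin-1 heavy chain, from 44.2 ± 13.1 to 175 ± 25.1 CPM (2.00, adjusted p = 0.00024). Its relative Kif5a, known mainly from neurons, fell from 17.2 ± 3.37 to 4.48 ± 3.63 CPM (−1.90, adjusted p = 0.00045), and Kif1c fell from 1180 ± 257 to 655 ± 179 CPM (−0.86, adjusted p = 0.0058). Kif1c was also called lower in recovery (−1.13, adjusted p = 0.0066), but the block gave −1.03 (adjusted p = 0.13).

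Severing and nucleation genes and the other tubulins made up the rest. Of 12 destabilisers 5 were called higher after repeated atrophy against 28.1% of rows (3 with rescaling, against 13%), among them the katanin subunits Katna1 (1.18, adjusted p = 9.1e-05, limma) and Katnal1 (1.2, adjusted p = 0.018). Of 8 nucleation genes 3 were called higher, against the same 28.1%, whereas with rescaling 0 were higher and 1 lower, against 13% and 12.1%. The 3 include Nedd1 (0.69, adjusted p = 0.027) and Akap9 (0.64, adjusted p = 0.011), and for Nedd1 the block gave an adjusted p of 0.13. Of 6 other tubulins tested 2 were called higher, near the 28.1% of rows. With rescaling 1 was called, against 13%, and with the block 1, against 21.5%. The median log2 fold change of these 6 was 0.19, against 0.20 over all rows. The 2 were the gamma-tubulins, Tubg2 by 1.49 (adjusted p = 0.0013) and Tubg1 by 0.60 (adjusted p = 0.03), and they may share reads. For Tubg1 the adjusted p was 0.37 with rescaling and 0.086 with the block. Tubg1 was called lower in recovery (−0.93, adjusted p = 0.012), but the block gave −0.56 (adjusted p = 0.18).

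Markers of other cells moved in some groups, and their calls are read against the shares of all rows given above. The 5 satellite cell and myoblast markers summed to between 78.7 and 230 CPM in control and between 78.8 and 217 in recovery, where 1 was called lower (1 with rescaling, 0 with the block). In disuse the sum was higher, between 273 and 1055 CPM after atrophy and between 647 and 831 after repeated atrophy. Myog, 1 of these 5, alone averaged 57.4 CPM in control, 465 in atrophy and 528 in repeated atrophy. The sum thus followed mostly 1 gene and is not a count of cells. After atrophy 3 of these 5 were called higher and 0 lower (2 and 0 with rescaling, 0 and 0 with the block), against 20.3% of rows higher. After repeated atrophy 3 were called higher and 1 lower, against 28.1% and 6.24%, and these counts were 3 and 1 both with rescaling and with the block.

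The 5 fibroblast markers summed to 176 to 417 CPM in control and 650 to 1103 in recovery. In recovery 4 of them were called higher, against 4.4% of rows, as were 3 of 5 proliferating cell markers and 2 of 5 macrophage and leukocyte markers. With rescaling these counts were 5, 4 and 4, against 6.28% of rows. With the animal as a block 0 of these markers were called in recovery, where 0.0428% of rows were called higher. The sum of the proliferating cell markers lay between 0.506 and 5.45 CPM in the control limbs, between 6.33 and 13.6 after recovery and between 3.55 and 4.43 after repeated atrophy. After atrophy it was 3.71 CPM in the lowest limb and above every recovery limb in the highest, and in the sham limbs it ranged from 2.03 to 31.6 CPM. Of these 5, 1 was called higher after atrophy (0 with rescaling and 0 with the block) and 1 after repeated atrophy (0 with rescaling and 1 with the block). Macrophage and leukocyte markers summed to 57.8 to 117 CPM in recovery against 19.7 to 78.3 in control.

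After repeated atrophy 1 of 5 endothelial markers and 1 of 8 fibre markers were called lower, against 6.24% of rows. With rescaling these counts were 4 and 1, against 12.1%, and with the block 0 and 0, against 5.66%. The fibre markers summed to 87737 to 212165 CPM in atrophy and 113884 to 156865 in repeated atrophy. Of 5 smooth muscle and pericyte markers, 2 were lower with rescaling and 1 with the block after repeated atrophy, against the same 12.1% and 5.66%. With rescaling 1 endothelial and 1 smooth muscle and pericyte marker were also lower after atrophy, against 5.16% of rows. None of these markers was at 0 in all limbs of a group. Their part in the tubulin differences was not tested.

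Genes with a profile close to that of Tuba8 over the 24 limbs included Smarcd3, Smpdl3b, Pebp1 and Fam20c, by the root mean square difference of standardized log2 levels (0.531 to 0.650, among the lowest of 10135 symbols). Tuba4a came 16th, the highest rank of a tubulin. The profile of Tubb6 was closest to Myog (0.294), Runx1, Cdkn1a, Ankrd1 and Ampd3 (0.334). Myog, which encodes a muscle regulatory factor, averaged 57.4 CPM in control, 465 in atrophy, 59.8 in recovery and 528 in repeated atrophy. Among tubulins Tubb2a was nearest to Tubb6, at rank 129. These are descriptions over limbs that share animals.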

How the data were processed

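RNA from the TA of 12 aged rats, both limbs, had been sequenced from directional polyadenylated libraries. The authors removed contaminant reads with Bowtie2 (version 2.2.5 in the submitters' processing notes), used STAR for alignment to rn7, and exported the table from Partek. How reads shared by near-identical genes were counted is not given in the sources used here. The deposited unit is CPM, although the authors' methods name a median of ratios normalization; each column sums to 1000000, so tests for normalized values were used. Of 27 value columns, 3 matched no sample and were not used. Depth was inferred from the CPM of 1 read; 89.5% to 90.4% of low values were whole numbers of reads (within 0.02 reads beside rounding), so reads were not treated as recovered and no count test was run.

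After 28 exact duplicates were dropped, 14243 rows remained, and each member was its highest-mean row. Rows above 0 in at least 3 limbs were tested with limma 3.58.1 (R 4.3.3) on log2(CPM + 1), with an intensity trend, all groups of the TTX animals in 1 fit and no block, and adjusted over all rows. The sham fit held the sham left and control limbs. The replicate block was the animal, since left and right limbs come from the same rat per the labels; the deviations of left and right limbs from their group means correlated at −0.30 to 0.82, over 0.1 in 7 of 12 rats. In the sham comparison the block sets left against right limbs of the sham rats.

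The members and gene lists were chosen with earlier results of these data known. Named list genes were the 2 largest rises and 2 largest falls per group among rows called after repeated atrophy with a mean of at least 1 CPM, beside the 5 genes nearest in profile to Tuba8 and Tubb6. Of these nearest genes, 1 is not reported here. P-values rest on 3 rats per treated group. Alternatives were 2 other pseudocounts, rescaling, filters, fits and leaving out each rat. Summing read-sharing members and combining rescaling with the block were added after seeing the data.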

Additional observations from a re-analysis of the deposited data

Results flagged for a closer look

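In 3 members the left limb moved one way in every rat of a disuse group and the opposite way in every recovery rat; these differences were not tested. For Tuba8, which the set was chosen for, the mean left minus right difference in recovery minus that in atrophy was −2.76 on the log2 scale, and repeated atrophy minus recovery was 3.01. For Tuba4a, the leading alpha-tubulin, the same values were −2.98 and 3.71. For Tubb4b, the leading beta-tubulin, repeated atrophy minus recovery was 2.45, while in atrophy the left limb was higher in 2 of 3 rats. No control limb of the 10 members stood apart by Dixon's 95% critical value for 9 limbs.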

How the results depend on the processing

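Of the 9 members other than Tuba8, the 8 called after atrophy became 4 with either rescaling (trimmed mean of log ratios or median of ratios) and 0 with the animal as a replicate block, with or without rescaling. The 2 called in recovery became 0 with the replicate block and 1 with the block and rescaling together, which gave 5 in place of 6 in repeated atrophy. With only the groups compared in the fit, Tubb4b was not called after atrophy, and Tuba1a was called higher in recovery as well. Leaving out 1 rat gave 0 to 8 in atrophy, 1 to 3 in recovery, 5 to 8 in repeated atrophy and 0 to 1 in the sham comparison. The list of 111 microtubule genes went from 46 calls in atrophy to 22 with either rescaling and 0 with the block, with or without rescaling, from 12 in recovery to 0 with the block and 1 with both, and from 64 in repeated atrophy to 40 with both. Leaving out 1 rat gave 0 to 53, 0 to 12 and 41 to 68. For the fits without 1 rat, the shares of all rows called are not given here. The cause was not tested.

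Tuba8 in recovery was −1.83 with the block and −1.95 with block and rescaling, against −1.27. Directions turned for members that were not called. With the block, without and with rescaling, Tubb6 in recovery was 1.06 and 0.94, and in repeated atrophy against atrophy Tuba4a was 0.74 and 0.62 and Tubb4b 0.29 and 0.17. Tubb2b in repeated atrophy was 0.04 with the block. It was 0.06 against atrophy with a pseudocount of 0.1. In the sham comparison Tubb2b was −0.11 with either rescaling and −0.12 with the block, with or without rescaling, and Tubb4b −0.01 with both. Leaving out 1 rat, the ranges were −0.17 to 0.43 for Tuba1c, −0.18 to 0.46 for Tubb2a, −0.09 to 0.26 for Tubb5 and −1.01 to 0.39 for Tubb6 in recovery, and −0.27 to 0.27 for Tubb2b in repeated atrophy. Against atrophy they were −0.42 to 0.91 for Tuba1b, −0.53 to 0.08 for Tuba1c, −0.34 to 0.49 for Tubb2a, −0.49 to 0.47 for Tubb2b, −0.19 to 0.48 for Tubb5 and −0.30 to 0.45 for Tubb6. In the sham comparison they were −0.57 to 0.05 for Tuba8, −0.20 to 0.24 for Tubb2b and −0.23 to 1.73 for Tubb6. At 0.514 CPM Tubb2b rested on as few as 13 reads, so small differences in it were not detectable at this depth.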
